A study of Mus musculus with 10 samples.

Results

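Genes that move calcium between the cytosol and the sarcoplasmic reticulum (SR) were followed in the left ventricle (LV) of mice with neonatal ascending aortic constriction (nAAC) and of sham mice. The 10 genes were Atp2a2, Pln, Sln, Ryr2, Casq2, Casq1, Slc8a1, Trdn, Jph2 and Hrc. They were taken by symbol from the 55401 genes of each deposited table, and all 10 were found. The libraries came from LV tissue of 5 nAAC mice and 5 sham mice, WT for genotype, of the C57BL/6 strain and 4 weeks old. In the nAAC mice the ascending aorta was narrowed by surgery soon after birth, and the sham mice had sham surgery. The pups of both groups stayed with their mothers, and the labels give no sex. Each library holds the RNA of whole LV tissue, so that fewer cells of a type and less RNA per cell cannot be told apart.

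Each heartbeat releases calcium from the SR, a membrane store that surrounds the myofibrils of a cardiomyocyte, through the ryanodine receptor RyR2. The calcium pump SERCA2a, the product of Atp2a2, returns it to the store, and phospholamban (Pln) and sarcolipin (Sln) are small membrane proteins that inhibit the pump. Inside the store calsequestrin (Casq2 in the heart, Casq1 in skeletal muscle) binds calcium and is tied to RyR2 by triadin (Trdn), while the histidine-rich calcium binding protein (Hrc) also binds calcium there. Junctophilin 2 (Jph2) holds the SR close to the cell membrane, and the sodium-calcium exchanger (Slc8a1) carries calcium out of the cell. A fall of SERCA2 transcripts is a widely described feature of the pressure-overloaded heart.

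The bases before the start sites of Pln, Hrc, Casq2 and Casq1 are shown because transcripts of Pln and Hrc fell and those of the calsequestrin genes were higher in FPKM as deposited, as described after them. Each line gives the 250 bases before the RefSeq start site in GRCm38.p6, from 5′ to 3′ on the strand of the gene, and capitals mark matches to the motifs searched. They lie at chr10:53337436-53337685 on the plus strand for Pln, chr7:45335019-45335268 on the plus strand for Hrc, chr3:102086165-102086414 on the plus strand for Casq2 and chr1:172219896-172220145 on the minus strand for Casq1.
Pln: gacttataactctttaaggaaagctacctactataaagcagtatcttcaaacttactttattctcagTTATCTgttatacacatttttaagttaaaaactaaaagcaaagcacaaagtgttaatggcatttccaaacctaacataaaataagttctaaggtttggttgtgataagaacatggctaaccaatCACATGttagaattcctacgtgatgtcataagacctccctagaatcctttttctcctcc
Hrc: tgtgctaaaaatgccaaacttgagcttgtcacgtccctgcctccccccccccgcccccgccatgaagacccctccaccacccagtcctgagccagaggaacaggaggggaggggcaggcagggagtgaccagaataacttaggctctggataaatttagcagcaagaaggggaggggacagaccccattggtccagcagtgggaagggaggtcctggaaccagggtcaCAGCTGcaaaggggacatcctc
Casq2: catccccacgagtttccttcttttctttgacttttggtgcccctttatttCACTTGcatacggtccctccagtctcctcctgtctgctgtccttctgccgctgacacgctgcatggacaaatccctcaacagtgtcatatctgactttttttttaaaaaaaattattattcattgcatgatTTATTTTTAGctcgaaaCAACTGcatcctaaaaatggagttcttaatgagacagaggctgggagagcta
Casq1: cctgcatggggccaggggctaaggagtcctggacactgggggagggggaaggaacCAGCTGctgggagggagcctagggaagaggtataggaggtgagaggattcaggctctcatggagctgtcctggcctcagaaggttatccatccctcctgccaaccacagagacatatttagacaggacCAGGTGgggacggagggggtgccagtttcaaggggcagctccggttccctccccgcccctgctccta

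RefSeq windows were matched for 7 of the 10 genes; Atp2a2, Sln and Trdn were not matched. The starts lie close to, but not always at, the gene starts of the deposited tables. The motifs searched on both strands were the E-box CANNTG, the GATA motif AGATAA, the MCAT motif CATTCC, the MEF2 motif and the CArG box. Jph2 had 2 windows, and all 8 windows of the 7 genes held an E-box, as did 66.2% of the 32851 windows of all genes. The MEF2 motif was found in 1 window, that of Casq2, from 69 to 60 bases before the start, and in 2.92% of all windows. The GATA motif was found in Pln, from 183 to 178 bases before the start, and in Slc8a1, against 9.99% of all windows. Neither the MCAT motif (12.6% of all windows) nor the CArG box (1.47%) occurred in the 8. Of the genes that fell, Pln and Hrc had a window. A match is a description of the sequence and not of binding.

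The values are FPKM, fragments per kilobase of transcript scaled to the depth of the library, so that levels of different genes can be compared. The nAAC libraries held 11889 to 12455 genes at 1 FPKM or more and the sham libraries 11182 to 11721, and the depth estimated from the ratio of FPKM to coverage was 4.86 to 6.82 gigabases against 5.06 to 5.24. Cardiomyocyte markers were high in every library, with the sum of 12 markers at 16500 to 23140 FPKM under nAAC and 14370 to 27180 under sham surgery. Of these 12 markers 5 were higher and 1 lower in nAAC mice, in the limma test described with the 10 genes, which called 27.1% of all genes higher and 4.60% lower. Of 6 fibroblast markers 5 were higher, and their sum was 480.7 to 864.5 FPKM in nAAC libraries and 344.3 to 370.5 in sham libraries. All 4 smooth muscle markers were higher, 1 of 5 endothelial markers was, and none of 5 macrophage and leukocyte markers passed the test. The part of these cell types in the results below was not tested. Sham replicate 4 was the lowest sham library in Ryr2 and the extreme one in ratios with Ryr2, and values without it are given beside those results. Only its ratio of Casq2 to Ryr2 was flagged as an outlier. The same library was also the highest of all in the cardiomyocyte markers Tnnt2, Tnni3 and Myl3, at 5959, 5287 and 5636 FPKM. It was the lowest of all in the marker Ttn, at 7.39 FPKM, and neither the highest nor the lowest in the rest of the 12.

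In sham mice the order of the mean levels was Pln, Atp2a2, Casq2, Hrc, Trdn, Jph2, Ryr2, Slc8a1, Casq1 and Sln. Pln and Atp2a2 stood far above the others and lay between ranks 30 and 45 of all genes. Casq2 and Hrc overlapped in range, as did Trdn with Jph2, Jph2 with Ryr2, and Casq1 with Sln, while each other neighbour in the order was separated. In nAAC mice Jph2 came before Hrc and Trdn, and the ranges of Jph2 and Hrc, of Hrc and Trdn, of Trdn and Ryr2, of Slc8a1 and Casq1 and of Casq1 and Sln overlapped. The 10 genes together made up 0.426% to 0.535% of the TPM, the share of all transcripts, in nAAC mice and 0.669% to 0.772% in sham mice.

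**Figure D1:**
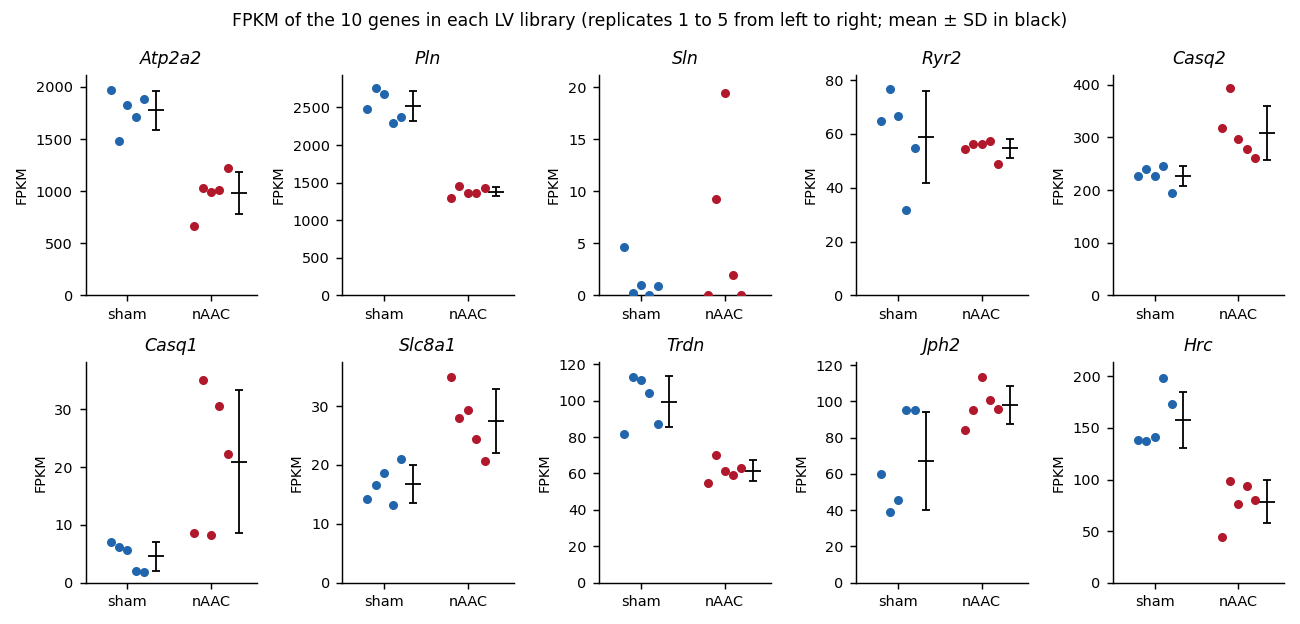
FPKM (linear axes from 0) of the 10 genes in 5 sham mice (blue) and 5 nAAC mice (red), 1 point per library, with the mean ± SD in black except for Sln, which is listed at 0 in 1 library. Atp2a2, Pln, Trdn and Hrc lay lower in every nAAC mouse, Casq2 and Casq1 lay higher, and the groups overlapped for the other 4 genes.

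Of the 10 genes 4 were lower and 3 higher in nAAC mice. Transcripts of the SERCA pump, its inhibitor phospholamban, triadin and the histidine-rich calcium binding protein fell. Those of the skeletal calsequestrin gene Casq1 rose, and those of Casq2 and the exchanger gene Slc8a1 were called higher in FPKM as deposited but not after median-ratio scaling or scaling to the cardiomyocyte markers. The limma test on log2(FPKM + 1) with Benjamini-Hochberg adjustment over the 11867 genes whose mean FPKM was 1 or more called 27.1% of all genes higher and 4.60% lower at an adjusted p below 0.05. For 6 of the 10 genes the groups did not overlap, as for 22.3% of all genes tested. With an absolute log2 FC above 1 added, 2 of the 10 genes passed, Casq1 and Hrc, against 5.91% of all genes. The median log2 FC of the 10 genes was 0.19 and that of all genes 0.22. After scaling each library by the median ratio of its genes, which brought the median of all genes to 0.00, 13.0% of genes were higher and 12.1% lower, and of the 10 genes the same 4 were lower and only Casq1 was higher.

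Atp2a2 (ENSMUSG00000029467; chr5:122453513-122502225 of mm10, minus strand) had an FPKM of 671, 1030, 988, 1010 and 1220 in nAAC replicates 1 to 5 and of 1972, 1485, 1825, 1712 and 1885 in sham replicates 1 to 5. Every nAAC library lay below every sham library, and nAAC replicate 1 was the lowest. The mean fell from 1776 ± 188 to 984 ± 198 (SD, n = 5 each), or by 44.6% of the sham mean. The log2 FC was -0.87 (standard error, SE, 0.18, adjusted p = 0.0025 in limma). Permuting the 10 values (exact, two-sided) gave p = 0.0079, the smallest that 5 against 5 mice allow.

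Pln (ENSMUSG00000038583; chr10:53337667-53345987, plus strand) was the most abundant of the 10 genes. Its FPKM was 1301, 1450, 1367, 1356 and 1423 in the nAAC mice and 2484, 2752, 2680, 2292 and 2374 in the sham mice. The groups did not overlap, and the nAAC values were close to each other, with an SD of 4.26% of the mean. The mean fell from 2516 ± 196 to 1380 ± 58.7 (SD, n = 5 each), which is a log2 FC of -0.86 (SE 0.14, adjusted p = 4.3e-04 in limma). Gm47644, annotated on the opposite strand within Pln, had a mean FPKM of 14.4 in nAAC mice and 36.0 in sham mice. The use of strand in counting was not stated, so reads of the pair cannot be told apart.

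The balance of the transcripts of the pump and its inhibitor did not differ beyond the spread between mice. The ratio of Pln to Atp2a2 FPKM within a library was 1.45 ± 0.291 in nAAC mice and 1.44 ± 0.248 in sham mice (SD, n = 5 each), a difference of 0.01 on the log2 scale (two-sided exact permutation test, p = 0.94). Its log2 value had an SD of 0.27 in nAAC mice and 0.23 in sham mice, which limits the size of a difference that these mice could show. In coverage the difference was -0.16 (exact permutation test, adjusted p = 0.188 over 9 ratios), and with length and GC trends removed it was 0.26 (exact permutation test, adjusted p = 0.203). Relative to the mean of the 12 markers the log2 level of Atp2a2 was 1.28 lower and that of Pln 1.27 lower in nAAC mice. The groups did not overlap (p = 0.0079 by exact permutation, for either gene). The 12 cardiomyocyte markers themselves had a median log2 FC of 0.59, against 0.22 for all genes. Any level given relative to these markers therefore carries their own change as well.

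The third partner, Sln (ENSMUSG00000042045; chr9:53850164-53854560, plus strand), is a transcript of the atria as well as an inhibitor of SERCA. It was listed at 0 in nAAC replicate 1 and had an FPKM of 9.23, 19.4, 1.98 and 0.0343 in nAAC replicates 2 to 5, and of 4.62, 0.271, 1.01, 0.0771 and 0.892 in the sham mice. The groups overlapped, and the log2 FC of 0.89 (SE 0.77, adjusted p = 0.39 in limma) did not pass the test. The values followed the atrial light chain Myl7, which was 1.10, 54.0, 79.8, 11.9 and 0.654 FPKM in the nAAC mice and 22.4, 3.89, 3.66, 1.16 and 7.33 in the sham mice. The same libraries were high in both genes, namely nAAC replicates 2 and 3 and sham replicate 1. With Myl7 as a covariate the log2 FC of Sln was 0.25. The ratio of Sln to Myl7 was at most 0.244 in nAAC mice and 0.277 in sham mice, and it was not tested because of the value of 0.

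Of the 7 atrial markers the atrial growth factor gene Bmp10 was at most 0.0106 FPKM in any library. The summed level of all 7 was 13.5 to 222.7 FPKM in nAAC libraries and 29.9 to 69.1 in sham libraries. None of the 6 tested was higher, beside 27.1% of all genes. Of the 6, 3 (Sbk2, Kcnj3 and Stard10) were lower in nAAC mice, beside 4.60% of all genes. Among 8365 genes compared over the 10 libraries, those whose scaled pattern was nearest to that of Sln were the atrial light chains Myl4 and Myl7, with mean absolute differences of 0.162 and 0.191 SD, followed at a distance by Hba-a1, Nnt and Ubap1 at 0.456 to 0.485 SD. For Atp2a2 the nearest were Whrn, Dglucy, Ces1d, Adhfe1 and Adamts7, at 0.185 to 0.252 SD, each of which had a lower mean in nAAC mice. These distances are over libraries of both groups and carry the difference between the groups with them.

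**Figure D2:**
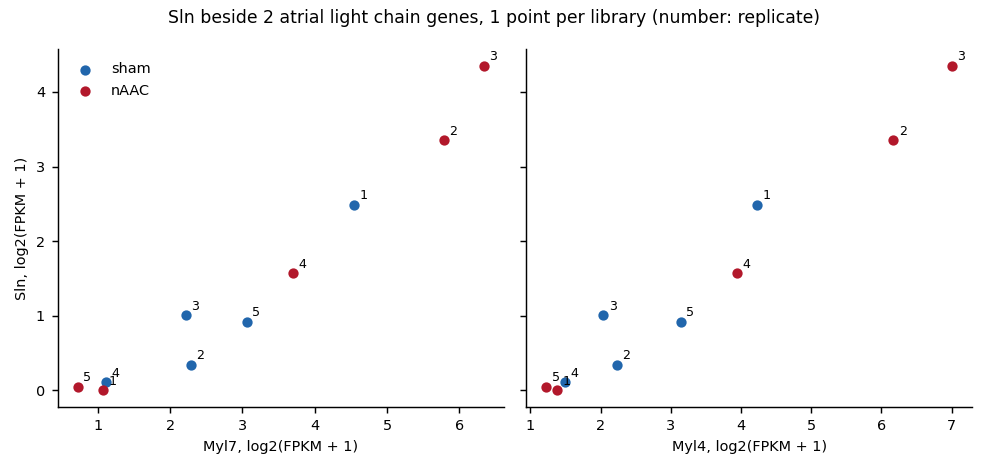
Sln against the atrial light chain genes Myl7 (left) and Myl4 (right), all as log2(FPKM + 1), 1 point per library in 5 sham mice (blue) and 5 nAAC mice (red), numbered by replicate. nAAC replicates 2 and 3 were the highest in all 3 genes, at 9.23 and 19.4 FPKM of Sln, and libraries low in the light chains were low in Sln in both groups.

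Transcripts of the release channel did not pass the test. Ryr2 (ENSMUSG00000021313; chr13:11553102-12106945, minus strand) had an FPKM of 54.3, 56.3, 56.4, 57.2 and 48.9 in the nAAC mice and of 64.8, 76.7, 66.7, 31.9 and 54.8 in the sham mice. The nAAC values were within a narrow band, and sham replicate 4, at 31.9, was the lowest of all 10. The log2 FC was -0.05 (SE 0.20, adjusted p = 0.86 in limma), and without sham replicate 4 it was -0.26 with an adjusted p of 0.101 from limma. With the trends of each library on transcript length and GC content removed, Ryr2 was called lower, with a log2 FC of -0.43.

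Transcripts of Ryr2 stood higher relative to those of Atp2a2, while Ryr2 itself did not rise (log2 FC -0.05). A ratio to Atp2a2 carries the fall of Atp2a2 (log2 FC -0.87), so it is not a separate measure of Ryr2. The ratio of Ryr2 to Atp2a2 was 0.0579 ± 0.0147 in nAAC mice and 0.0338 ± 0.0120 in sham mice (SD, n = 5 each), 1.76-fold higher by the difference of mean log2 ratios (two-sided exact permutation test, p = 0.016, Benjamini-Hochberg adjusted p = 0.036 over 9 ratios). The groups overlapped, and the call was lost on leaving out any of 8 of the 10 mice, where the log2 difference ran from 0.62 to 0.87. It was kept without nAAC replicate 5 (0.94) and without sham replicate 2 (0.99).

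Trdn (ENSMUSG00000019787; chr10:33080554-33476709, plus strand), whose product anchors calsequestrin to RyR2, had an FPKM of 54.7, 70.1, 61.3, 59.0 and 62.9 in the nAAC mice and of 81.8, 113, 111.1, 104.3 and 87.1 in the sham mice. All nAAC values lay below all sham values. The mean fell from 99.4 ± 14.2 to 61.6 ± 5.68 (SD, n = 5 each), which is a log2 FC of -0.68 (SE 0.13, adjusted p = 0.0020 in limma). A transcript on the opposite strand, D830005E20Rik, had a mean FPKM of 7.74 in nAAC mice and 4.99 in sham mice. The ratio of Trdn to Ryr2 was 1.13 ± 0.126 in nAAC mice and 1.85 ± 0.807 in sham mice (SD, n = 5 each), with a log2 difference of -0.63 (two-sided exact permutation test, adjusted p = 0.036 over 9 ratios). Sham replicate 4 held the highest ratio, at 3.27, and the difference was -0.40 without it; it no longer passed without any one of nAAC replicates 1 to 4, or in coverage, at -0.52, or with length and GC trends removed, at -0.25.

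Casq2 (ENSMUSG00000027861; chr3:102086415-102146514, plus strand), the cardiac calsequestrin, had an FPKM of 317, 393, 296, 277 and 261 in the nAAC mice and of 227, 240, 226, 246 and 195 in the sham mice. Every nAAC library lay above every sham library, with means of 309 ± 51.7 and 227 ± 19.7 (SD, n = 5 each). The log2 FC was 0.43 (SE 0.14, adjusted p = 0.035 in limma). This call depended on the scaling, for after median-ratio scaling the log2 FC was 0.15 (limma adjusted p = 0.546). In the 10 fits without 1 mouse the log2 FC stayed between 0.34 and 0.49, and the call held in those without nAAC replicate 5, sham replicate 2 or sham replicate 4, while the limma adjusted p was 0.051 to 0.0911 in the others. Relative to the cardiomyocyte markers Casq2 differed by 0.03 on the log2 scale (two-sided exact permutation test, p = 0.88, unadjusted, 9 genes compared).

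Casq1 (ENSMUSG00000007122; chr1:172209894-172219868, minus strand), the skeletal muscle calsequestrin, had the largest log2 FC of the 10 genes. Its FPKM was 8.56, 35.1, 8.26, 30.5 and 22.2 in the nAAC mice and 7.05, 6.22, 5.59, 1.95 and 1.93 in the sham mice. The groups did not overlap, but the nAAC mice ranged widely, and replicates 1 and 3 lay just above the sham mice. The mean was 20.9 ± 12.3 against 4.55 ± 2.44 (SD, n = 5 each), and the log2 FC 1.89 (SE 0.43, adjusted p = 0.0047 in limma), rank 106 of 11867 genes. It was called in each of 24 alternatives, with log2 FC from 1.52 to 2.63. No skeletal muscle marker of 8 reached the level for testing: the myosin Myh4 was at 0 in every library, and the summed level of the 8 was 0.737 to 1.96 FPKM in nAAC libraries and 1.37 to 2.36 in sham libraries. The troponin gene Tnnt3 was higher in every nAAC library, at 0.148 to 1.12 FPKM against 0 to 0.126, and the troponin gene Tnni2 was lower in every nAAC library, at 0.0811 to 0.297 against 0.947 to 1.77. The part of skeletal muscle transcripts in the level of Casq1 was not tested. The skeletal pump Atp2a1 was at most 0.141 FPKM and the skeletal release channel Ryr1 at most 0.0232. Casq1 remained a small part of calsequestrin transcripts, at 0.0270 to 0.110 of Casq2 in nAAC mice and 0.00793 to 0.0311 in sham mice (two-sided exact permutation test, adjusted p = 0.071 over 9 ratios).

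Hrc (ENSMUSG00000038239; chr7:45335290-45338974, plus strand), whose product binds calcium within the SR and contacts both triadin and SERCA, showed the largest decrease of the 10 genes. Its FPKM was 44.8, 98.5, 76.4, 93.5 and 79.8 in the nAAC mice and 138.2, 136.9, 140.8, 198.1 and 173.2 in the sham mice. No nAAC mouse reached the lowest sham mouse, and nAAC replicate 1 was again the lowest. The mean fell from 157.5 ± 27.3 to 78.6 ± 21.01 (SD, n = 5 each), which is a log2 FC of -1.03 (SE 0.21, adjusted p = 0.0023 in limma).

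The transcripts of these luminal calcium binding proteins moved apart. The ratio of Hrc to Casq2 was 0.141, 0.250, 0.258, 0.337 and 0.306 in the nAAC mice and 0.609, 0.571, 0.623, 0.806 and 0.888 in the sham mice, without overlap. It was 2.78-fold lower in nAAC mice by the mean log2 ratio (two-sided exact permutation test, p = 0.0079, adjusted p = 0.036 over 9 ratios), and a ratio within a library does not depend on the scaling between libraries. Trdn and Hrc also fell against the cardiomyocyte markers, by 1.09 and 1.44 on the log2 scale, without overlap of the groups.

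Slc8a1 (ENSMUSG00000054640; chr17:81373105-81738377, minus strand), the exchanger that carries calcium out across the cell membrane, had an FPKM of 35.0, 27.9, 29.4, 24.3 and 20.6 in the nAAC mice and of 14.1, 16.5, 18.6, 13.3 and 21.1 in the sham mice. The groups overlapped by nAAC replicate 5 and sham replicate 5. The mean rose from 16.7 ± 3.21 to 27.4 ± 5.42 (SD, n = 5 each), which is a log2 FC of 0.68 (SE 0.16, adjusted p = 0.0068 in limma), while after median-ratio scaling it was 0.41 and did not pass (limma adjusted p = 0.101), and after scaling to the cardiomyocyte markers it was 0.29. Against transcripts of the pump the difference was larger, and a ratio within a library does not depend on the scaling between libraries. This ratio carries the fall of Atp2a2 (log2 FC -0.87) as well as the change of Slc8a1, so it is not a separate measure of Slc8a1. The ratio of Slc8a1 to Atp2a2 was 0.0522, 0.0271, 0.0297, 0.0241 and 0.0169 in the nAAC mice and 0.00717, 0.0111, 0.0102, 0.00775 and 0.0112 in the sham mice. All nAAC libraries lay above all sham libraries, and the ratio was 2.998-fold higher by the mean log2 ratio (two-sided exact permutation test, p = 0.0079, adjusted p = 0.036 over 9 ratios).

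**Figure D3:**
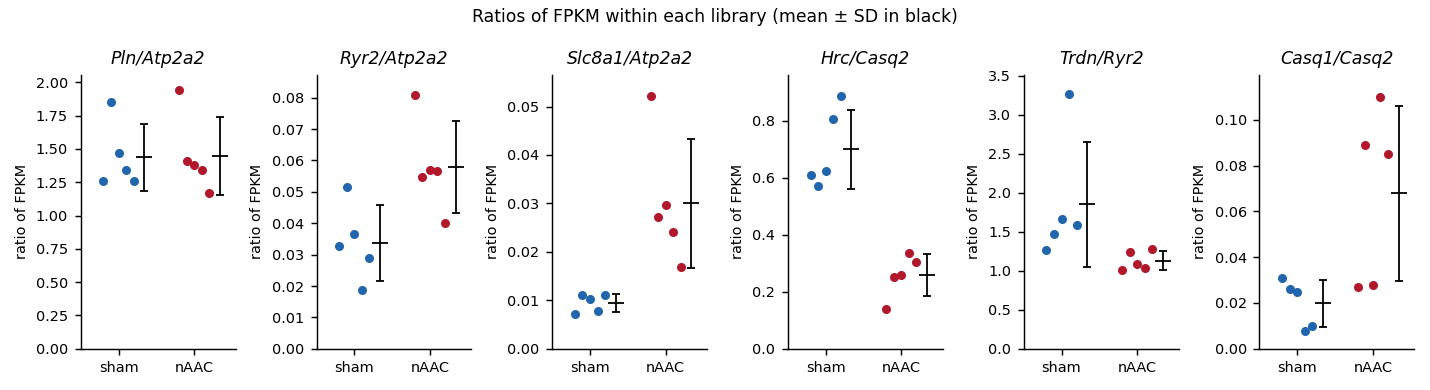
Ratios of FPKM within a library (linear axes from 0) for 6 gene pairs in 5 sham mice (blue) and 5 nAAC mice (red), with the mean ± SD in black. Pln to Atp2a2 overlapped between groups at means of 1.45 and 1.44, Slc8a1 to Atp2a2 lay higher in every nAAC mouse, and Hrc to Casq2 lay lower in every nAAC mouse.

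Jph2 (ENSMUSG00000017817; chr2:163336242-163397993, minus strand), the protein that bridges SR and cell membrane, did not pass the test. Its FPKM was 84.4, 95.3, 113.4, 100.8 and 96.0 in the nAAC mice and 60.2, 38.9, 45.5, 95.3 and 95.4 in the sham mice. The sham mice fell into 3 low libraries and 2 at the level of the nAAC mice. Mitochondrial genes made up 46.5%, 49.8% and 48.7% of the TPM in the 3 low libraries, sham replicates 1 to 3, 33.7% and 38.3% in sham replicates 4 and 5, and 32.9% to 39.9% in the nAAC libraries. The part of this share in the result was not tested. The log2 FC was 0.63 (SE 0.24, adjusted p = 0.058 in limma). Without sham replicate 4 it was 0.78 (limma adjusted p = 0.0150), without sham replicate 5 also 0.78 (limma adjusted p = 0.0199), and with length and GC trends removed it was 0.11. Jph2 was also called with FPKM rescaled without mitochondrial genes, at 0.62 (limma adjusted p = 0.029), and in TPM, at 0.80 (limma adjusted p = 0.0237).

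Exact permutation tests of the single genes (two-sided, unadjusted) gave p = 0.0079 for the 6 genes whose groups did not overlap, 0.016 for Slc8a1, 0.056 for Jph2, 0.29 for Sln and 0.60 for Ryr2. Relative to the cardiomyocyte markers of the same library, 4 of 9 genes passed in the same kind of test, Atp2a2, Pln, Trdn and Hrc. Casq1 was 1.76 higher on that log2 scale (exact permutation p = 0.071), Slc8a1 0.31 higher (exact permutation p = 0.28), Jph2 0.23 higher (exact permutation p = 0.19), and Ryr2 differed by -0.46 (exact permutation p = 0.21). Without sham replicate 4 Ryr2 differed by -0.75 (exact permutation p = 0.0159), and with length and GC trends removed by -0.50 (exact permutation p = 0.0238). Slc8a1 also passed with these trends removed, at 0.41 (exact permutation p = 0.0317), and Casq1 without nAAC replicate 3, at 2.07 (exact permutation p = 0.0397).

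Of the 12 ratios 9 could be tested, and 4 passed an adjusted p below 0.05, those of Slc8a1 and Ryr2 to Atp2a2, of Trdn to Ryr2 and of Hrc to Casq2. The other tested ratios did not: Casq2 to Ryr2 differed by 0.49 on the log2 scale (two-sided exact permutation test, adjusted p = 0.14), Jph2 to Ryr2 by 0.69 (exact permutation test, adjusted p = 0.21) and Fkbp1b to Ryr2 by 0.46 (exact permutation test, adjusted p = 0.69). Casq2 to Ryr2 passed with length and GC trends removed, at 0.69 (exact permutation test, adjusted p = 0.0265), and without sham replicate 4, at 0.73. Without that library Jph2 to Ryr2 passed as well, at 1.05, and Fkbp1b to Ryr2 was 1.05 and did not, so that 5 ratios passed. Casq1 to Casq2 passed without nAAC replicate 3, at a log2 difference of 1.99 against 1.73 with all mice (exact permutation test, adjusted p = 0.0476). The ratio of FPKM to coverage, which depends on the isoforms counted, varied between libraries most for Atp2a2 and for Slc8a1. For Slc8a1 it ran from 1.17 to 1.67 times the most frequent ratio of the library. For Atp2a2 it was 1.116 to 1.123 times in nAAC replicates 1 to 4 and 1.495 in replicate 5. In sham replicates 1 to 5 it was 1.406, 1.115, 1.353, 1.406 and 1.336. In coverage scaled to library depth the log2 FC of Atp2a2 was -0.72 (limma adjusted p = 0.0037), against -0.87 in FPKM. The part of the isoforms in this was not tested.

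**Figure D4:**
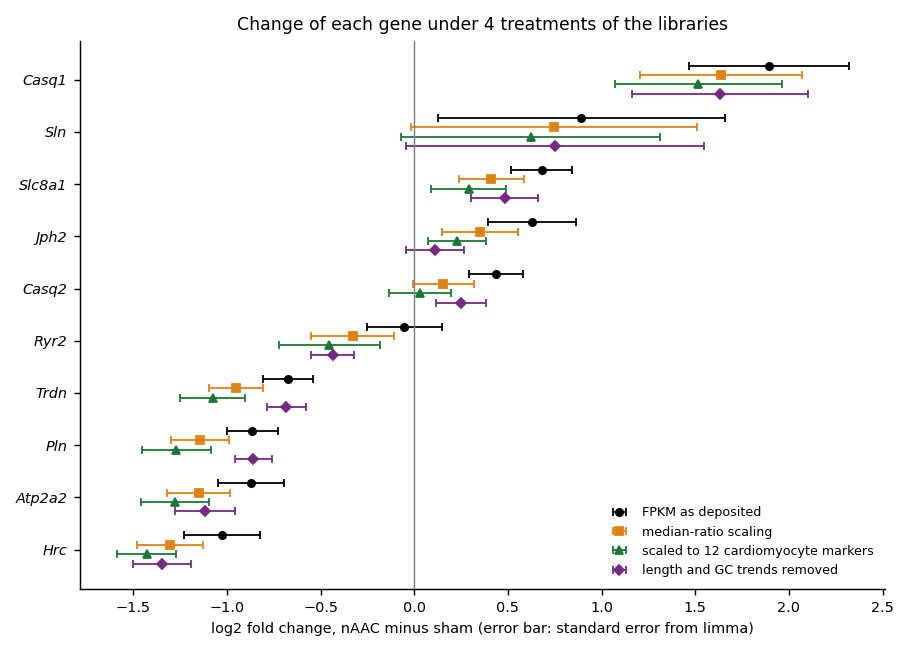
log2 fold change of each gene between nAAC and sham mice, with the SE from limma as error bars, for FPKM as deposited, after median-ratio scaling, after scaling to 12 cardiomyocyte markers, and with length and GC trends removed. Hrc, Atp2a2, Pln and Trdn lay below 0 in all 4 and Casq1 at 1.52 or more in all 4, while Casq2, Slc8a1 and Jph2 moved toward 0.

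Other genes of SR calcium handling were taken from 6 lists of 59 genes, of which 57 had a row and 42 were tested. Of the 42 genes 13 were higher and 2 lower, with a median log2 FC of 0.26 against 0.22 for all genes. Of all genes 27.1% were higher and 4.60% lower, so the share of the 42 lay near that of all genes. After median-ratio scaling 2 were higher and 5 lower, beside 13.0% and 12.1% of all genes. Without sham replicate 4 the number higher was 18. In that fit 3945 of all 11891 genes tested were higher, against 3211 of 11867 with all mice. None passed an absolute log2 FC of 1.

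Among SERCA isoforms and regulators 3 of 6 tested genes were higher, where 27.1% of all genes were. Atp2a3, a SERCA isoform of non-muscle cells, had a log2 FC of 0.67 and means of 5.82 and 3.30 FPKM, far below Atp2a2. The calcium sensor S100a1 had one of 0.65, at 545 and 353 FPKM, and Hax1, which binds phospholamban, one of 0.55. Transcripts of the small SERCA peptides were low in FPKM. Strit1 had means of 0.409 and 1.35 FPKM and Mrln of 0.251 and 0.313 in nAAC and sham mice. Their longest annotated transcripts are short, at 243 bases for Strit1 and 451 for Mrln. The part of this length in the values was not tested, and the peptides were not measured. Ppp1r1a, an inhibitor of protein phosphatase 1, had 0.321 and 0.895 FPKM. Like Strit1, Mrln and Atp2a1, it was under the level for testing.

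In the RyR2 complex 3 of 13 tested genes were higher and 2 lower, beside 27.1% and 4.60% of all genes. Fkbp1a had a log2 FC of 0.38, sorcin (Sri) of 0.43 and the anchoring protein gene Akap6 of 0.55. The kinase gene Camk2a fell by 0.55 on the log2 scale (limma adjusted p = 0.033) and Akap7, which anchors protein kinase A near phospholamban, by 0.46 (limma adjusted p = 0.013). Camk2d, the main cardiac isoform of this kinase, had 0.24 and Asph, the junctin locus, 0.35, and neither passed. Fkbp1b, the FKBP with the higher affinity for RyR2, had means of 0.465 and 0.455 FPKM and was not tested.

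At the junction and in the SR membrane 2 of 8 tested genes were higher, near the 27.1% of all genes. These were Bin1, which shapes T-tubules, at 0.67 and the kinase gene Speg at 0.60. Jph1 at 0.05 and the SR cation channel gene Tmem38a at 0.17 did not pass. In the SR lumen 3 of 4 tested genes were higher, against the same 27.1%: sarcalumenin (Srl) at 0.67, with 202 and 127 FPKM and no overlap, calreticulin (Calr) at 0.52 and calumenin (Calu) at 0.54. None of 4 tested genes of calcium extrusion other than Slc8a1 passed. Of 7 tested genes of IP3 receptors and store-operated entry 2 were higher, again near 27.1%, namely Itpr3 at 0.35 and Stim2 at 0.48, while Itpr1 at 0.19, Itpr2 at 0.15 and Stim1 at 0.24 did not pass.

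**Figure D5:**
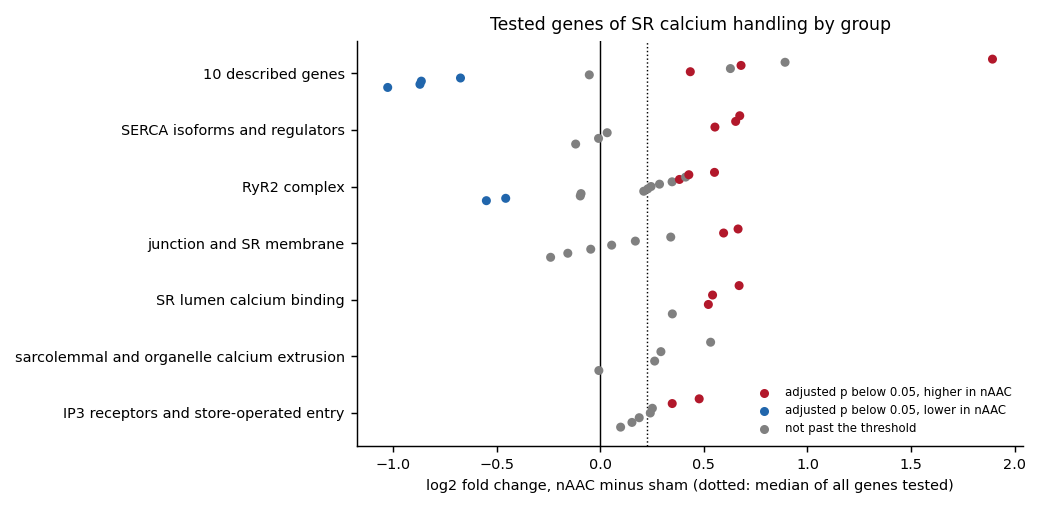
log2 fold change of the 10 described genes and of the 42 other tested genes of SR calcium handling by group, coloured by the limma call, with the median of all genes tested at 0.22 as a dotted line. Hrc, at -1.03, lay farthest below 0 and Casq1, at 1.89, farthest above, and most other genes lay between -0.3 and 0.7.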

How the data were processed

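LV tissue RNA was extracted with Trizol and made into libraries with a NEBNext Ultra kit, 1 library per mouse, 5 per group, grouped by the operation named in the labels. The labels do not state whether the mice of a group shared a litter, and p-values measure only the spread between these samples. The authors deposited FPKM, TPM and coverage per gene, the deposited TPM being FPKM rescaled to a common sum and the coverage the mean reads per base. The build was mm10 per the labels; aligner, counting tool and use of strand are not given in the sources used here. Coordinates matched GENCODE M21 for 99.4% of 55141 shared genes. No read counts were recovered, so counting error is unknown.

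Rows of 1 gene ID were summed. The test was run in R 4.3.3 with limma 3.58.1, with a trend and Benjamini-Hochberg adjustment, after a check on simulated data. It used log2(FPKM + 1) of genes whose mean was 1 or more, and the added 1 understates changes of low genes. Single genes and ratios were compared by two-sided exact permutation tests. Other computing used Python 3.11.15, pandas 2.3.3, numpy 2.4.6 and matplotlib 3.10.9. The 10 genes, the lists of other genes and the markers were chosen with earlier results of these data known. Named genes were the 10, every called gene of the 6 lists, and 15 defining partners such as Strit1 and Fkbp1b. Alternatives covered scaling, low-value filters, pseudocount, TPM, covariates, length and GC trends, the replicate block, thresholds and leaving out each mouse. Coverage scaled to library depth was added after seeing the data.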

Additional observations from a re-analysis of the deposited data

Results flagged for a closer look

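One of 58 groups of 5 values had an extreme library, where chance flags about 1 in 20 groups, or 2.9 here. The log2 ratio of Casq2 to Ryr2 in sham mice was 2.95 in sham replicate 4 and 1.65 to 1.83 in the other sham mice, a gap of 0.857 of the range against a critical value of 0.71. Ryr2 was at 31.9 FPKM in this library, and without it the ratio of Casq2 to Ryr2 differed between groups by 0.73 on the log2 scale (two-sided exact permutation test, adjusted p = 0.036), that of Jph2 to Ryr2 by 1.05 (exact permutation test, adjusted p = 0.043).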

How the results depend on the processing

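The decreases of Atp2a2, Pln, Trdn and Hrc and the increase of Casq1 passed an adjusted p below 0.05 in each of 24 alternative fits, single mice left out included. The stricter thresholds are not among these fits, and Atp2a2, Pln and Trdn did not pass an absolute log2 FC above 1. The number of the 10 genes called higher was 1 under median-ratio scaling, scaling to cardiomyocyte markers, removal of length and GC trends or an absolute log2 FC above 1, and 1 was called lower under the last. Pathway genes called higher numbered 20 in TPM, 2 with Xist, a transcript of female cells, as covariate, 6 with trends removed, 2 under median-ratio scaling, 0 under cardiomyocyte scaling, 7 under upper-quartile scaling, 0 above the fold threshold and 5 at an adjusted p below 0.01. Those called lower numbered 0 in TPM, 0 with Xist, 1 in coverage, 7 with trends removed, 5 under median-ratio scaling, 1 with no low-value filter, 6 under cardiomyocyte scaling, 0 above the fold threshold and 0 at an adjusted p below 0.01. Over all genes, 1540 were higher and 1432 lower after median-ratio scaling against 3211 and 546, and 909 and 1585 under cardiomyocyte scaling, 5304 and 383 in TPM, 1686 and 1883 with trends removed and 1593 and 390 with Xist. The cause of these changes was not tested.

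Ryr2 turned upward in TPM (0.12) and with Xist as covariate (0.14), and the ratio of Pln to Atp2a2 turned to -0.16 in coverage. With 1 mouse left out, the genes called higher ranged from 2 to 4 and lower from 4 to 4, pathway genes from 9 to 18 and from 1 to 2, ratios passing from 2 to 5, and genes differing from the cardiomyocyte markers from 4 to 5. Ryr2 ran from -0.26 to 0.055, Pln to Atp2a2 from -0.10 to 0.10, Fkbp1b to Ryr2 from -0.077 to 1.05 and Casq2 against the markers from -0.085 to 0.12. Ratios passing fell to 2 without nAAC replicate 1, 2 or 4. The highest counts of pathway genes called higher and of ratios passing were those without sham replicate 4, where 3945 of all 11891 genes tested were higher.

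Replicate numbers did not pair the mice: correlations of deviations of same-numbered libraries ran from -0.32 to 0.19, and 0 of 5 nAAC libraries correlated best with their own number. With the replicate number as a block 1 pathway gene was called lower, and Casq2 had a limma adjusted p of 0.0526. Sln gave no value at a mean FPKM of at least 5, and the ratio of Fkbp1b to Ryr2 none with trends removed. Depth in reads is unknown, so low genes such as Sln rest on the spread between mice alone.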

Other observations

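Nnt, the mitochondrial transhydrogenase gene, came up among the patterns nearest to Sln. Its FPKM was 12.5, 158.4, 161.6, 158.6 and 5.996 in the nAAC mice and 200.7, 32.5, 35.7, 8.03 and 11.4 in the sham mice. The high libraries were nAAC replicates 2 to 4 and sham replicate 1, at 158.4 or more, and all others lay at 35.7 or less. Jsrp1, a junctional SR protein gene under the level for testing, was 0.475 to 1.56 FPKM in nAAC mice and at most 0.212 in sham mice, without overlap, and was chosen after its values were seen.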
